A study of Mus musculus with 3 samples.

Results

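The genes that encode the proteins of the mitochondrial ribosome were measured by polyadenylated RNA sequencing in mouse macrophages. A gene was a member when its symbol began with Mrpl or Mrps and a number and it had at least 1 protein-coding transcript, which gave 78 of the 55536 genes quantified. Of these, 49 have a symbol starting with Mrpl and 29 with Mrps. The material was a single group, macrophages grown from the bone marrow of the inbred strain C57BL/6J and exposed to 100 ng/mL of lipid A for 180 min, in 3 biological replicates. The labels disagree on the agent: the description names lipid A, the membrane anchor of lipopolysaccharide, while other fields name lipoprotein A. Sex and age were not collected per the labels, all 3 libraries carry the same donor identifier, and no untreated cells were analysed here. Every value is therefore a level within these cells or a spread between libraries, and none is a response to the agent. Because nothing in the labels gives separate animals, the p-values below measure only the spread between these libraries, set against counting error.

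Mitochondria carry their own small genome and translate its messenger RNAs, all of which encode subunits of the respiratory chain and ATP synthase, on a dedicated ribosome. The ribosomal RNAs of that ribosome come from the mitochondrial genome, whereas all of its proteins are encoded in the nucleus, made in the cytosol and imported. Some of these proteins have a counterpart in the bacterial ribosome, and others are found only in mitochondria.

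Subunits were assigned by structure rather than by symbol. The large subunit, which forms the peptide bond, held 51 members, including Mrps18a and Mrps30, and the small subunit, which reads the messenger RNA, held 26. Mrps36, now known as a component of the 2-oxoglutarate dehydrogenase complex, matched the symbol rule and was kept as a member of neither. Of the 77 genes in a subunit, 48 have a bacterial counterpart and 29 are specific to mitochondria.

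Over mouse genes, replicates 1, 2 and 3 held 24450338, 34641026 and 60595742 expected counts, and the members received 20384, 33246 and 49626 of them, or 0.0834%, 0.0960% and 0.0819%. A gene was called detected at 1 TPM (a share of all transcripts, scaled by length) or more in all 3 replicates, which 10026 genes reached. All 10 macrophage markers were detected, led by Lyz2 at 18063 TPM, with a summed level of 29699, 19675 and 24136 TPM. Markers of 3 other cell types were low: the summed level over 5 T cell markers was at most 0.65 TPM, over 5 B cell markers at most 2.71 TPM and over 5 fibroblast markers at most 7.04 TPM in any replicate. The 10 neutrophil markers summed to 83.4, 715 and 48.5 TPM, with S100a9 highest and Ly6g at 0 in every replicate, where a count of 0 leaves room for 3 counts per library by counting error alone.

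All 78 members were detected, between the 15.6th percentile of detected genes for Mrpl47 and the 92.3rd for Mrps21 by mean TPM. Their median was 16.8, 19.9 and 18.1 TPM in replicates 1, 2 and 3, against 14.6, 15.2 and 14.1 TPM for the median detected gene. On the log2(TPM + 0.1) scale this placed them 0.31 ± 0.10 above the median detected gene (SD, n = 3). Above that median stood 53 members. The middle 50% of members spanned 12.6 to 29.9 TPM, 8 members reached a mean of 50 TPM and 15 stayed under 10 TPM. Together they made up 2145 ± 169 TPM (SD, n = 3), of which the 2 highest held 16.7% and the 39 lowest 21.3%. The order of the members was kept between libraries, with a Spearman rho over the 78 genes of 0.919 between replicates 1 and 2, 0.958 between 1 and 3 and 0.948 between 2 and 3.

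**Figure D1:**
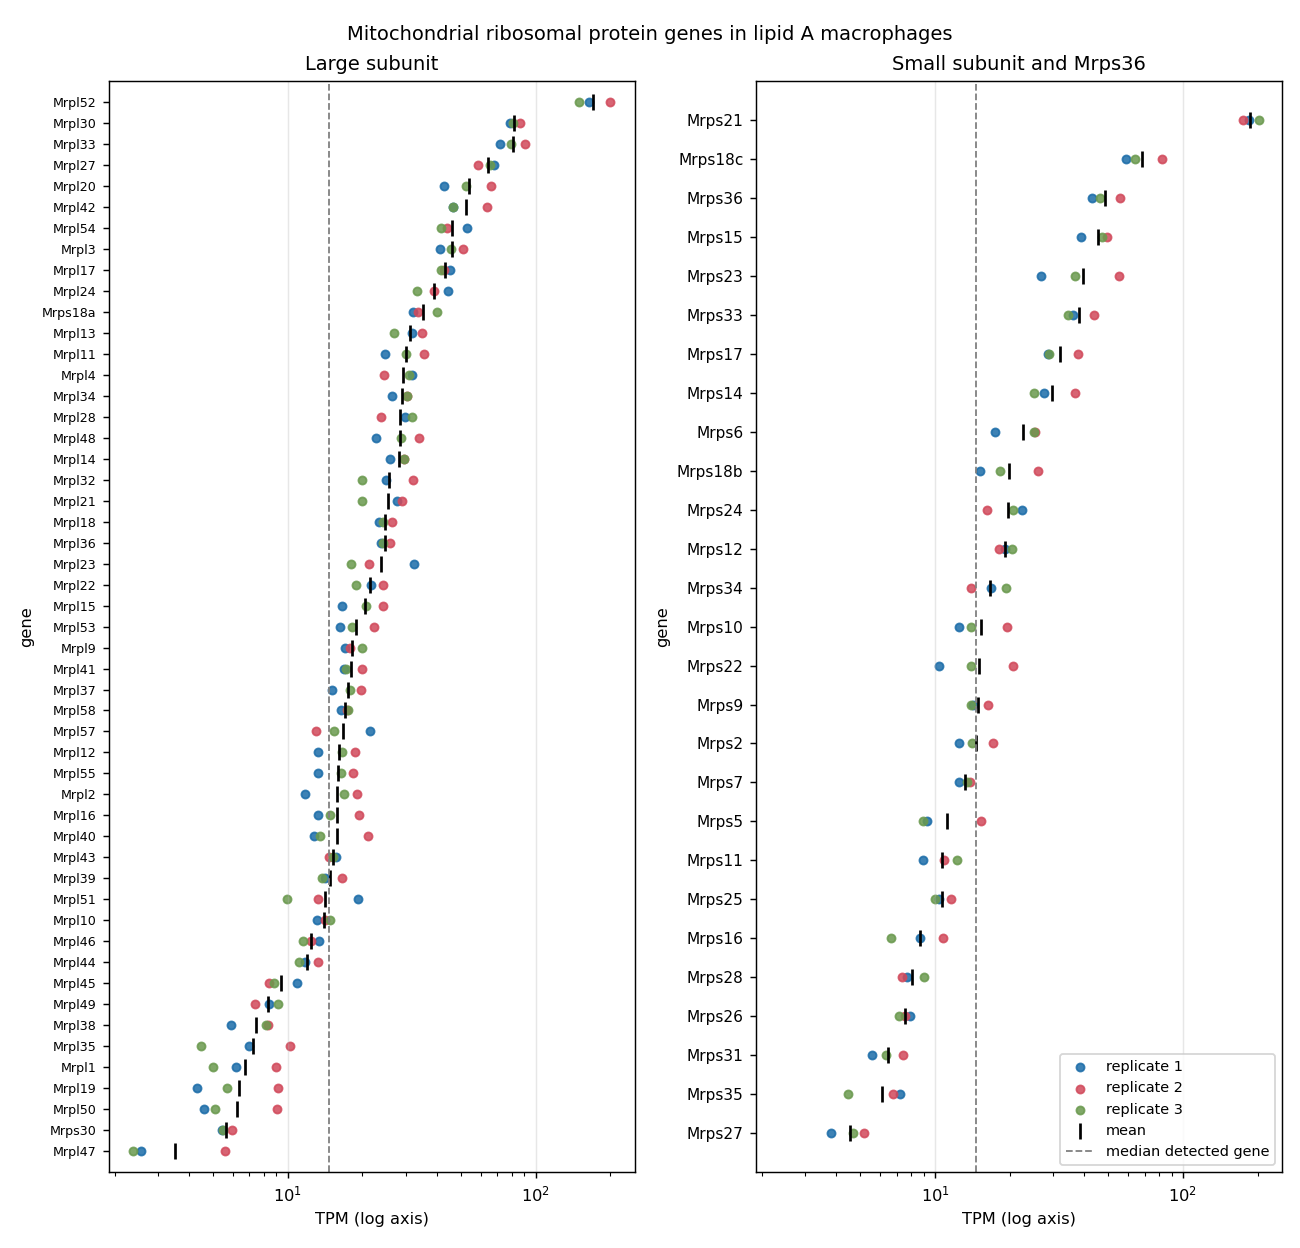
TPM (log axis) of each of the 78 genes in replicates 1, 2 and 3 (points) with the mean (black tick), large subunit on the left, small subunit and Mrps36 on the right; the dashed line is the median detected gene. Mrps21 and Mrpl52 stand apart at the top, and 53 genes lie to the right of the dashed line.

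In the large subunit the 5 highest members were Mrpl52, Mrpl30, Mrpl33, Mrpl27 and Mrpl20. Mrpl52, a mitochondria-specific protein, had 163, 199 and 149 TPM in replicates 1, 2 and 3. Mrpl30, the counterpart of bacterial L30, had 78.6, 86.1 and 81.3 TPM. Mrpl52 stood apart, since no replicate of any other large-subunit gene reached 100 TPM. Mrpl33 had 71.7, 90.5 and 79.8 TPM. Mrpl27, whose bacterial counterpart reaches toward the peptidyl transferase centre, had 67.7, 58.6 and 65.6 TPM. Mrpl20 had 42.8, 66.3 and 52.4 TPM, and its lowest replicate fell below every replicate of Mrpl27.

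At the lower end of the large subunit stood Mrpl47, Mrps30, Mrpl50, Mrpl19 and Mrpl1. Mrpl47, the counterpart of bacterial L29 beside the exit of the peptide tunnel, had 2.55, 5.57 and 2.37 TPM and was the lowest of all members. Its exons share 616 bases with Ndufb5 and 452 bases with Actl6a on the opposite strand, genes at 68.2 and 15.2 TPM, and since strand is not stated for these libraries, their reads could not be told apart there. Mrps30, a mitochondria-specific protein of the large subunit despite its symbol, had 5.45, 5.95 and 5.49 TPM. Mrpl50 had 4.60, 9.04 and 5.07 TPM. Mrpl19, the counterpart of bacterial L19 at the face that meets the small subunit, had 4.31, 9.13 and 5.71 TPM, and Mrpl1, the counterpart of the protein of the L1 stalk, had 6.17, 8.98 and 4.98 TPM. Their ranges overlap in every pair, and replicate 2 was the highest in all 5 genes.

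Small-subunit genes showed the same kind of range. Mrps21 (chromosome 3, 95862634 to 95871519, minus strand, mm10), the counterpart of bacterial S21, was the most abundant of all members at 185, 175 and 202 TPM, and its range overlapped that of Mrpl52. Mrps18c had 59.0, 82.3 and 63.9 TPM. Mrps15, whose bacterial counterpart binds early in assembly of the small subunit, had 39.0, 49.4 and 47.4 TPM. These genes were followed by a pair of mitochondria-specific proteins. Mrps23 had 26.8, 55.5 and 36.8 TPM and Mrps33 had 36.1, 43.6 and 34.4 TPM. Mrps23 was the widest of these in TPM, yet its counts scaled to library size (CPM, with no length scaling), 14.0, 17.1 and 15.9, were close together. The share of its TPM assigned to Mrps23-202, a transcript of 332 bases, was 29.6%, 49.6% and 36.7%.

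The 5 lowest of the small subunit were Mrps27, Mrps35, Mrps31, Mrps26 and Mrps28. Mrps27, an RNA-binding protein of the pentatricopeptide repeat family, had 3.80, 5.16 and 4.67 TPM. Mrps35 had 7.20, 6.77 and 4.44 TPM and rested on 308 counts over the 3 libraries, the fewest of any member. Both are specific to mitochondria. Mrps31 had 5.59, 7.44 and 6.37 TPM, Mrps26 had 7.89, 7.54 and 7.16 TPM, and Mrps28, a relative of bacterial S1, had 7.69, 7.39 and 9.05 TPM. All 5 overlapped a neighbour in the order, and none reached 10 TPM in any replicate.

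Compared as sets of members, the large subunit lay above the small one. Neither set is the whole subunit, since 5 ribosome subunits that carry other names, given below, were in neither. The median member of the large subunit had 19.3, 21.3 and 18.1 TPM in replicates 1, 2 and 3, against 13.4, 16.8 and 14.1 TPM for the small subunit. The difference of the medians was 0.41 ± 0.10 on the log2(TPM + 0.1) scale (SD, n = 3), with the same direction in 3 of 3 replicates. Without length scaling, on CPM, it was 0.30 ± 0.19, so its SD was then a larger part of it. Members with a bacterial counterpart lay above those without. The median mitochondria-specific member had 14.1, 13.9 and 13.8 TPM, against 22.9, 24.3 and 20.5 TPM for the median conserved member, a difference of -0.69 ± 0.11 on the log2 scale (SD, n = 3). On CPM that difference was -0.36 ± 0.012. No p-value was computed for either contrast.

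Of the 3 mouse genes related to bacterial S18, Mrps18c was the highest. Mrps18a, whose product sits in the large subunit, had 31.9, 33.5 and 40.1 TPM, and Mrps18b had 15.2, 26.0 and 18.3 TPM. The ranges of these paralogs, with Mrps18c as given above, did not overlap in any pair. Mrps36 had 43.1, 55.9 and 46.4 TPM and stood between Mrps18c and Mrps15 by its mean.

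Level in TPM fell with transcript length among the members. Their median effective length, the number of positions at which a fragment can start, was 744 bases, against 2099 bases over detected genes. Spearman's rho between mean TPM and effective length was -0.74 over the 78 members, against -0.15 over the 10026 detected genes, and 0.028 over the members when CPM took the place of TPM. Mrpl52 and Mrps21 had effective lengths of 168 and 199 bases. The libraries had a stated size range of 250 to 400, given without a unit, and the part of size selection in the TPM of such short transcripts was not tested. In CPM the members spanned a smaller range, between 2.59 for Mrps35 and 25.9 for Mrpl30, while the highest mean TPM was 53.6 times the lowest. Mrps30, the second lowest of the large subunit in TPM, had 11.3 CPM, close to the median member at 11.0 CPM. The points of these correlations share the same 3 libraries, and genes are not independent replicates.

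**Figure D2:**
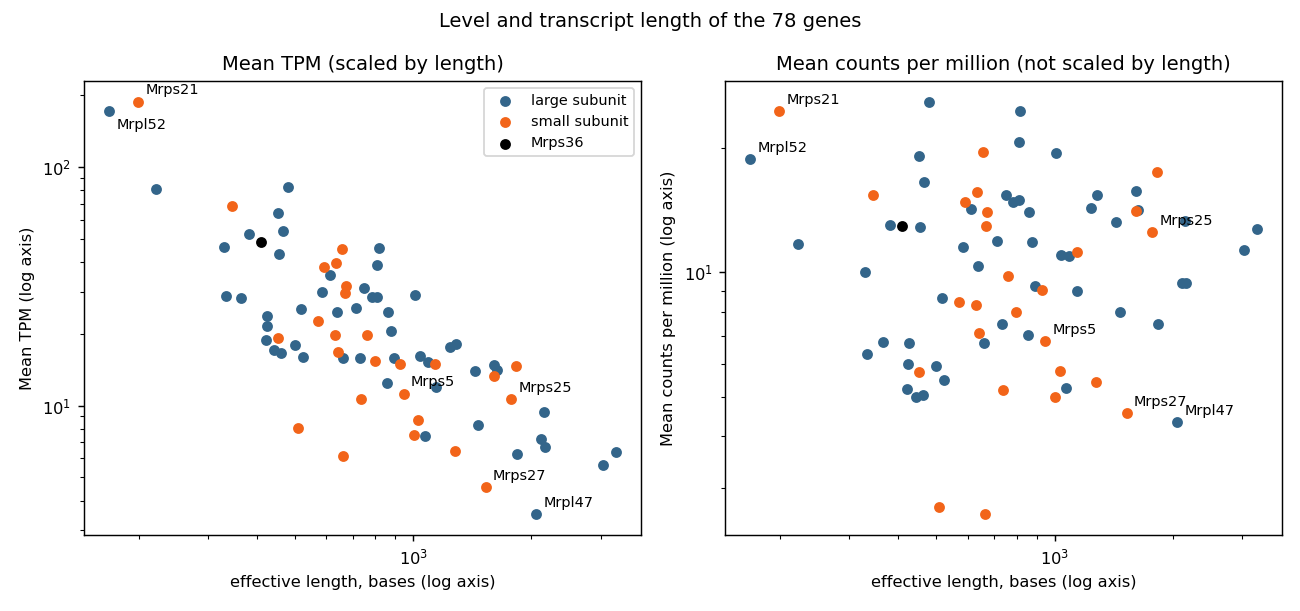
Mean level of the 78 genes against effective length in bases (both axes logarithmic), as TPM on the left and CPM on the right, coloured by subunit. TPM falls with length (rho -0.74), whereas CPM shows no slope (rho 0.028).

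Other parts of mitochondrial translation stood at other levels. Of 5 further ribosome subunits that carry other names all were detected, from Chchd1 at 51.9, 56.0 and 45.0 TPM to Gadd45gip1 at 3.13, 3.20 and 3.27 TPM. Their level over the median detected gene was 0.67 ± 0.056. As a median of 5 genes it was that of Dap3 in every replicate, at 23.2, 25.3 and 21.8 TPM. The conserved members stood at 0.62 ± 0.072 and the mitochondria-specific members at -0.069 ± 0.047. These 5 genes were assigned to neither class and to no subunit. Initiation, elongation, release and recycling factors, of which 11 of 12 symbols were found, were all detected but low, at -1.68 ± 0.15. Among them the elongation factor Tufm had 22.5, 31.6 and 28.2 TPM and the release factor Mtrf1 had 1.09, 2.32 and 1.77 TPM. Of 23 assembly and rRNA processing factors 21 were detected. The level over all 23 was -1.93 ± 0.11, with Mpv17l2 highest at 16.1 TPM and Mettl15 lowest at 0.437 TPM. Of 17 mitochondrial aminoacyl-tRNA synthetases 11 were detected. The level over all 17 was -2.19 ± 0.12, and Lars2 stood apart from them at 389, 150 and 301 TPM. Copies of Lars2 were not searched for, and the source of its reads was not tested.

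The 5 genes of mitochondrial transcription lay at -1.75 ± 0.27, led by Tfam, which packages mitochondrial DNA, at 12.8, 17.7 and 11.8 TPM, with Mterf1a lowest at 1.45 TPM. Factors that act on mitochondrial messenger RNA ran from Slirp at 84.8 TPM to Taco1 at 2.65 TPM over 5 genes, and the pair that serves membrane insertion, Letm1 and Oxa1l, had 13.2 and 12.2 TPM. Against the 2145 TPM of the members, the 73 cytosolic ribosomal protein genes summed to 63256 ± 6791 TPM and the 76 nuclear respiratory chain subunit genes to 11930 ± 731 TPM (SD, n = 3), and their levels were 5.68 ± 0.14 and 2.83 ± 0.091. Cytosolic genes ran from Rps29 at 2554 TPM to Rpl5 at 84.8 TPM, and respiratory chain genes from Cox4i1 at 587 TPM to Cox7a1 at 8.26 TPM. The 13 mitochondrial messenger RNAs that the ribosome translates summed to 50181, 78435 and 47361 TPM, with mt-Atp8 highest and mt-Nd3 lowest by mean TPM. The lowest gene changed between libraries. It was mt-Nd3 at 88.7 TPM in replicate 1, mt-Co2 at 83.6 TPM in replicate 2 and mt-Atp6 at 9.83 TPM in replicate 3. In replicate 1, mt-Co2 had 1366 TPM and mt-Atp6 had 401 TPM. A large part of each sum was mt-Atp8, at 20822, 42284 and 27038 TPM. It rested on 30761 counts over the 3 libraries, against 986234 for mt-Co1 at a mean of 10339 TPM. Both ribosomal RNAs were detected, mt-Rnr1 at 1431 TPM and mt-Rnr2 at 1633 TPM.

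Nuclear transcription factors known to drive such genes were mostly present. Of 9 listed, 8 were detected, and the level over all 9 was -0.18 ± 0.076. Gabpb1, a subunit of the ETS-family factor GABP, was the highest at 18.4, 26.7 and 17.2 TPM, and the coactivator Ppargc1a was at 0.06, 0.02 and 0.02 TPM. Nrf1, a regulator of nuclear genes for mitochondria, had 13.6, 14.3 and 14.5 TPM.

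Between the libraries the members had a lower coefficient of variation than the typical gene, but a nearly equal biological coefficient of variation as edgeR estimates it. A chi-square test set each gene's counts in the 3 libraries against the shares given by the effective library sizes. At a Benjamini-Hochberg adjusted p under 0.05 over all 11611 genes tested, 49 of 78 members departed from those shares. That is 62.8%, against 77.5% of all genes tested. Without the filter on low counts 49 members were again called, against 49.65% of all genes, so the direction of this comparison depends on the filter. The median coefficient of variation of CPM was 11.6% over the members and 16.8% over all genes tested. The median biological coefficient of variation, which edgeR draws toward a common value, was 20.7% over the members and 21.3% over all genes tested. The chi-square p-values cover counting error only and take no account of the usual variation between libraries, so a call says that the libraries differ and not that the gene is unusual. Such a test also passes more readily at higher counts, and the median member had 1311 counts over the 3 libraries against 1772 for the median gene tested. Even the largest ratio of highest to lowest library among members was 1.85.

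The 5 most variable members were Mrpl23, Mrpl50, Mrps22, Mrpl15 and Mrps24. Mrpl50 had 5.68, 10.5 and 6.30 CPM in replicates 1, 2 and 3, a coefficient of variation of 35.1% (adjusted p = 1.28e-14, chi-square test on edgeR effective library sizes). Mrps22, a small-subunit protein mutated in a human mitochondrial disease, had 6.55, 12.0 and 8.71 CPM (30.2%, adjusted p = 3.04e-11, same test). Replicate 2 was the high library in both. Mrpl15 had 9.45, 14.8 and 11.2 CPM (23.2%, adjusted p = 4.05e-09), again with replicate 2 highest. Mrps24, the counterpart of bacterial S3 at the entry of the messenger RNA, went the other way with 9.65, 6.13 and 9.21 CPM (23.0%, adjusted p = 3.07e-07), replicate 2 lowest. Part of its exons, 226 bases, is shared with Urgcp on the same strand.

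Mrpl23, the counterpart of bacterial L23 at the tunnel exit, was the most variable, with 9.53, 5.48 and 5.19 CPM (36.1%, adjusted p = 1.74e-12, chi-square test on edgeR effective library sizes). It was high in replicate 1 alone. The 3 steadiest members were Mrpl36, Mrpl30 and Mrps30. Mrpl36, a small zinc-binding protein of the large subunit, had 10.3, 10.4 and 10.3 CPM (0.314%, adjusted p = 0.997). Mrpl30 had 25.6, 26.3 and 25.9 (1.36%, adjusted p = 0.876) and Mrps30 had 11.1, 11.5 and 11.3 (1.55%, adjusted p = 0.930).

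Where members differed between libraries, replicate 2 was most often the high one. It was the highest library for 46 of 78 members, or 59.0%, against 37.8% of all genes tested. Of the members past the test 30 were highest in replicate 2, which is 38.5% of 78, against 29.7% of all genes tested. Another 9 were highest in replicate 1 and 10 in replicate 3, where the share over all genes was not computed. The log2 CPM of a library minus the mean of the other 2 had a median over members of -0.077, 0.15 and -0.040 in replicates 1, 2 and 3, against 0.00056, 0.014 and 0.0074 over all genes tested. In replicate 2 this was 0.11 in the large and 0.19 in the small subunit, and 54 of 78 members lay above 0. The share of all genes above 0 there was 51.3%.

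Other gene lists deviated in replicate 2 in either direction. The 11 translation factors deviated by a median of 0.34 there, and 9 of them were highest in that library. Assembly and rRNA processing factors deviated by 0.0021, with 8 of 23 highest in replicate 2, and aminoacyl-tRNA synthetases by -0.045, with 7 of 17. The 5 ribosome subunits under other names deviated by -0.035, with 1 highest there. Messenger RNA factors had 0.32 and genes of mitochondrial transcription 0.39, each with 4 of 5 highest. Respiratory chain subunits deviated by -0.067, with 19 of 76 highest in replicate 2. Cytosolic ribosomal protein genes deviated by -0.42, and 0 of 73 were highest in it. The 13 mitochondrial messenger RNAs had 0.58 in replicate 2 and 9 were highest there. Neutrophil markers and most proliferation genes were also high in that library. All 4 neutrophil markers with enough counts were highest there, at a median deviation of 3.60. The 8 proliferation genes deviated by a median of 1.62, with 7 highest there, among them Pcna at 208, 355 and 270 TPM and Ccnb1 at 0.50, 3.45 and 0.91 TPM, whereas Mki67 had 28.5, 26.3 and 26.9 TPM. In bulk RNA, fewer cells of a type and less RNA per cell cannot be told apart, and the part of these genes or their cells in the level of the members in replicate 2 was not tested. Left without replicate 2, the test called 20 of 78 members, against 50.6% of all genes.

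**Figure D3:**
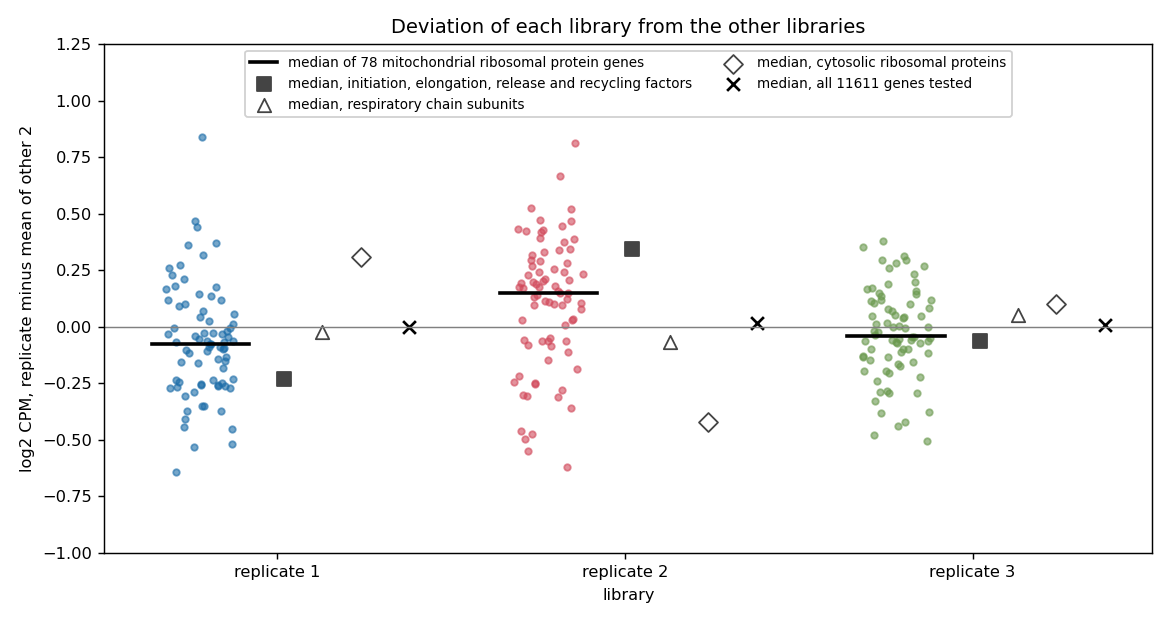
Log2 CPM of each library minus the mean of the other 2, for each of the 78 genes (coloured points, horizontal jitter only) with their median (bar), beside the medians of 3 other lists and of all 11611 genes tested. The members' median is 0.15 in replicate 2, where the cytosolic ribosomal protein genes lie at -0.42.

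The annotation lists 343 transcripts for the members, of which 170 are protein-coding, and 75 members have more than 1. Protein-coding transcripts held 86.4%, 87.9% and 89.1% of the members' summed TPM in replicates 1, 2 and 3. Transcripts annotated as subject to nonsense-mediated decay, a surveillance pathway that degrades messages with an early stop codon, held 5.85% ± 0.590, those with a retained intron 3.70% ± 0.741 and other processed transcripts 2.64% ± 0.418 (SD, n = 3). For 41 members the protein-coding share was 95% or more, and the median share was 96.8% ± 1.24.

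In 11 members the leading transcript by mean TPM over the replicates was not a protein-coding one. In 10 of them this held in every replicate. Mrpl3, a core protein of the large subunit at 45.8 TPM, had a protein-coding share of 16.9%, 18.6% and 23.9%, and its leading transcript, Mrpl3-204, is annotated for nonsense-mediated decay and held 45.5%, 46.9% and 39.7%. Mrps14, at 29.7 TPM, had a protein-coding share of 11.6%, 12.4% and 17.0%. Its leading transcript, Mrps14-201, is of the same annotated type, with 88.4%, 87.6% and 83.0%, and spans 674 bases, while Mrps14-203, its main protein-coding transcript, spans 2999 bases. The leading transcript was thus the same in every library for both genes, with the protein-coding share well below it.

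Mrpl32, which is cut to its mature form after import, had a protein-coding share of 8.71%, 8.15% and 10.5%. Mrpl32-201, annotated for nonsense-mediated decay and 658 bases long, held 78.6%, 76.2% and 73.1%, and the 1 protein-coding transcript is 3013 bases long. Mrpl15 was led by a processed transcript, Mrpl15-202, with 48.2%, 47.9% and 47.1%, and its protein-coding share was 24.8%, 26.9% and 20.4%. Mrpl57, a mitochondria-specific protein of the large subunit, was led by Mrpl57-202, a retained-intron transcript of 519 bases, with 93.1%, 90.3% and 89.4%, beside 1 protein-coding transcript of 2877 bases. The leading transcript of each of these genes was the same in all libraries, while in Mrpl15 the decay type, with 25.9%, 23.9% and 31.9%, and the protein-coding type changed places between libraries. The second quantification gave protein-coding shares of 22.6% for Mrpl3, 13.8% for Mrps14, 8.15% for Mrpl32, 24.0% for Mrpl15 and 10.5% for Mrpl57. The other 6 such members were Mrpl51, Mrps5, Mrps25, Mrps16, Mrps26 and Mrps35, with mean protein-coding shares between 6.96% for Mrps26 and 42.0% for Mrpl51. In Mrpl51 the protein-coding Mrpl51-201 held 20.2%, 51.2% and 54.6% and led in replicates 2 and 3, so its place among the 11 rests on replicate 1. These shares are estimates, since a fragment can match several transcripts of a gene, and no test was made of them. They are shares of TPM, which is scaled by length, and not shares of fragments. A short transcript reaches the same TPM with fewer fragments than a long one.

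**Figure D4:**
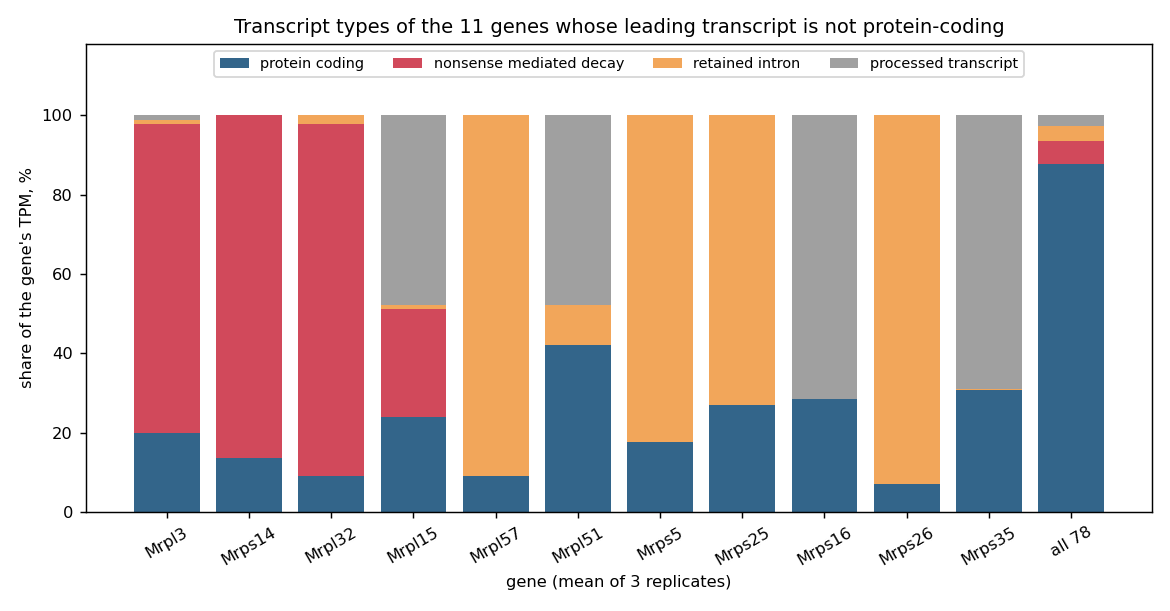
Share of each gene's TPM (percent, mean of 3 replicates) by annotated transcript type. Shown are the 11 genes whose leading transcript by mean TPM is not protein-coding and, at the right, the summed TPM of all 78. Mrpl3, Mrps14 and Mrpl32 are mostly of the decay type, Mrpl57, Mrps5, Mrps25 and Mrps26 mostly of the retained-intron type.

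The files hold 2 quantifications of the same reads. A member was said to differ when its mean log2 ratio passed 1.5-fold and all 3 replicates lay on the same side. By this rule 77 of 78 members did not differ. Among these 77, Mrps21, Mrpl11, Mrpl17 and Mrps23 passed 1.5-fold in 1 or 2 single replicates. The second gave lower values on the whole, by a median log2 ratio of -0.24 over detected genes and -0.30 over the members. Beyond 1.5-fold between the quantifications lay 5.32% of detected genes and, among the members, Mrpl23 (chromosome 7, 142532686 to 142540747, plus strand, mm10). Mrpl23 had 32.2, 21.3 and 18.0 TPM in the first quantification and 5.08, 5.70 and 5.03 TPM in the second.

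The genome holds a processed pseudogene of it, Mrpl23-ps1 (chromosome 2, 74591330 to 74591909, minus strand, mm10), which is no member because it has no protein-coding transcript. Bases 151 to 690 of the 692 bases of Mrpl23-201, the leading transcript, matched Mrpl23-ps1 at 100% identity over 540 bases, and the 438 coding bases lie within that stretch. The first 120 coding bases of each are printed to show that no letter in them separates the gene from its copy, with the start codon in capitals (GENCODE M21 transcripts).
Mrpl23: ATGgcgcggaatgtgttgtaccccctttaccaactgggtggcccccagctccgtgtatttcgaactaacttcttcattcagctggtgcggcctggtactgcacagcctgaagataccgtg
Mrpl23-ps1: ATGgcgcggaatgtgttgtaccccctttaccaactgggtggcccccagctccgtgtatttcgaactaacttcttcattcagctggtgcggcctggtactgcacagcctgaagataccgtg
Mrpl23-ps1 was given 25.9, 29.3 and 44.4 TPM in the first quantification and 43.8, 40.1 and 42.5 TPM in the second. The sum of both was closer between the quantifications, at 58.1, 50.6 and 62.4 TPM in the first and 48.8, 45.8 and 47.5 TPM in the second. In CPM of the first, the sum varied by 16.2% between libraries, against 36.1% for Mrpl23 alone. The level of Mrpl23 and its spread are therefore uncertain, since they depend on how reads were divided between these genes.

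**Figure D5:**
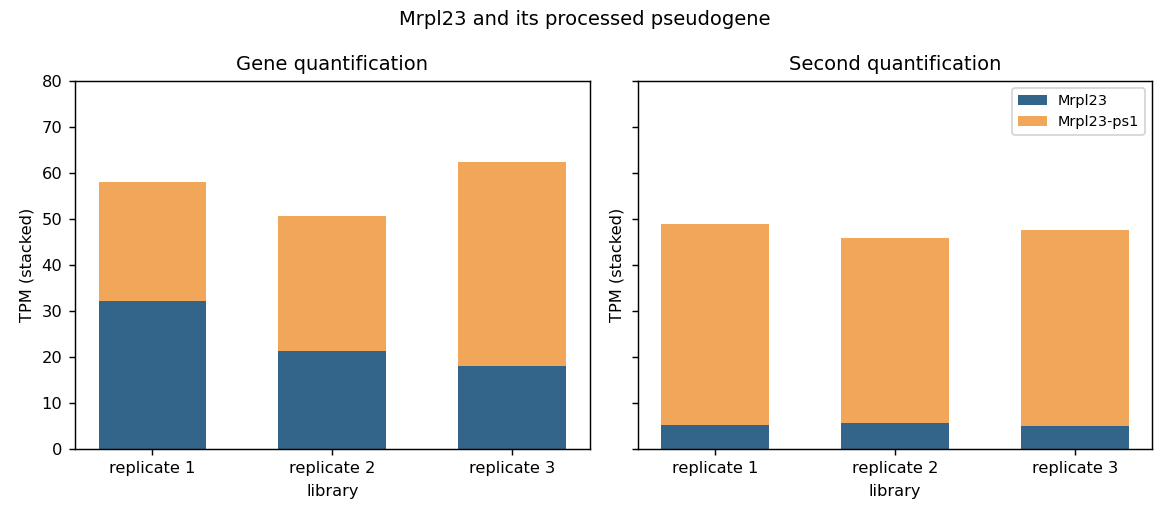
TPM of Mrpl23 and of its pseudogene Mrpl23-ps1, stacked, in replicates 1, 2 and 3 of the first (left) and second (right) quantification. Mrpl23 takes 18.0 to 32.2 TPM on the left and 5.03 to 5.70 TPM on the right, while the stacks differ less in height.

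A search of the main protein-coding transcript of each member against all transcripts of other genes found 21 copies of 14 members at 90% identity or more over at least 50% of the transcript. Of those copies 6 had 10 counts or more over the 3 libraries. These were Mrpl23-ps1, Mrpl48-ps with 13.2 counts, and 4 annotated genes that overlap a member in the genome: Gm42688 with Mrpl53, Gm16279 with Mrps18b, Nr2c2 with Mrps25 and Mapk8ip3 with Mrps34. Mrps21 has 3 pseudogene copies and Mrpl30 has 4, all with 0 counts. In all, 33 members share exon bases with another gene. Mrps34 shares 1309 bases with Mapk8ip3 on the opposite strand and 763 bases with Nme3 on the same strand, and the 3 genes had 16.7, 17.6 and 16.7 TPM.

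The members lie on 17 chromosomes, with at most 11 on one, chromosome 11. A protein-coding gene starts within 1000 bases upstream on the opposite strand, without overlap, for 18 members, or 23.1%, against 11.1% of the 9388 detected protein-coding genes. Members and partners reached levels that were close in some pairs and far apart in others. Mrps12, the counterpart of bacterial S12 at the decoding centre, starts 172 bases from Sars2, the mitochondrial seryl-tRNA synthetase gene, and they had 19.2 and 2.64 TPM. Mrps27 starts 81 bases from Ptcd2, which encodes another mitochondrial pentatricopeptide repeat protein, and they had 4.54 and 8.73 TPM. Mrpl32 starts 75 bases from the proteasome gene Psma2, with 25.6 and 60.9 TPM. Mrpl49 starts 59 bases from Fau, which encodes a cytosolic ribosomal protein, with 8.29 and 960 TPM, and Mrps18c starts 29 bases from the helicase gene Helq, with 68.4 and 0.777 TPM.

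Mrpl46 and Mrps11 on chromosome 7 are members of opposite subunits whose first exons overlap head to head, sharing 173 exon bases. Mrpl46 had 13.4, 12.4 and 11.5 TPM and Mrps11 had 8.92, 10.9 and 12.3 TPM. Their ranges overlapped, and reads from the shared bases could not be told apart without strand. RefSeq promoters, 250 bases before to 50 after a start (build GRCm38.p6, the same assembly as mm10), were found for 69 members by symbol, with 75 starts. The 9 others are Mrpl38, Mrpl15, Mrpl54, Mrpl13, Mrps34, Mrps28, Mrpl4, Mrpl19 and Mrps35. The promoters of the overlapping pair are printed because 141 of their 300 bases are the same stretch read from either strand, that of Mrpl32 because it held the NRF1 core more than once, and that of Mrps27 because a lowly expressed member held an ETS and a YY1 match. Capitals mark matches to any of the 6 motifs named after them.
Mrps11 (chr7:78782881-78783180, plus strand): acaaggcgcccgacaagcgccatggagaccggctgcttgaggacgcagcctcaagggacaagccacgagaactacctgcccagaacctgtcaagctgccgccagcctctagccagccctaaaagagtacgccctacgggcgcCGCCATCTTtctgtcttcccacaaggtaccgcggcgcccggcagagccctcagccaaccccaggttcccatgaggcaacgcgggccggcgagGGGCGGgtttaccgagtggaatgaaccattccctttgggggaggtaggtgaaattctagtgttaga
Mrpl46 (chr7:78783040-78783339, minus strand): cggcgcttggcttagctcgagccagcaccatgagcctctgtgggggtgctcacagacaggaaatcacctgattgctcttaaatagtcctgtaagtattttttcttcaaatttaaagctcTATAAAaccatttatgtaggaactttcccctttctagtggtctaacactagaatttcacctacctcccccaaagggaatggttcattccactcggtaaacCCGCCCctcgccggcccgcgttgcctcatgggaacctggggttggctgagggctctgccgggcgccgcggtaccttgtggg
Mrpl32 (chr13:14612988-14613287, minus strand): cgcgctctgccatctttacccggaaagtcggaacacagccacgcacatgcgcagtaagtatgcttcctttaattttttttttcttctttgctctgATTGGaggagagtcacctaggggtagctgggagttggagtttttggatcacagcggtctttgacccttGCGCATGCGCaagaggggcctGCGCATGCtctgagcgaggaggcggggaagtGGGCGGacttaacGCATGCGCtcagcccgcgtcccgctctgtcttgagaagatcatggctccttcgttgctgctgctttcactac
Mrps27 (chr13:99344536-99344835, plus strand): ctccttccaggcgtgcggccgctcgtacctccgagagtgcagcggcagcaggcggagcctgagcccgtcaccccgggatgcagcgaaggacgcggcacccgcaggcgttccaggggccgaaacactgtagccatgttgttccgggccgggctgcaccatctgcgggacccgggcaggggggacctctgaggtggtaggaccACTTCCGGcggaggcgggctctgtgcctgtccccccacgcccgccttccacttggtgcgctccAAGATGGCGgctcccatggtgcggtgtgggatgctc
The motifs, searched on both strands, were the NRF1 core GCATGCGC, the ETS site CCGGAAGT, the YY1 site AAGATGGCG, the GC box GGGCGG that SP1 binds, the CCAAT box and the TATA box TATAAA. None of them contains another. The NRF1 core was in 10.7% of the member promoters, against 2.71% of all 32851 promoters of the table. The ETS site was in 16.0% against 3.89%, the YY1 site in 10.7% against 1.40% and the GC box in 52.0% against 35.7%. The CCAAT box was in 40.0% against 37.4%, and the TATA box in 6.67% against 13.6%.

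Counted per gene and set against the 7544 detected protein-coding genes with a promoter in the table, the NRF1 core was found for 8 of 69 members (11.6% against 6.60%), the ETS site for 12 (17.4% against 10.7%) and the YY1 site for 8 (11.6% against 4.24%). The GC box was less frequent in members by this count, at 49.3% against 70.2%. Median GC content was 58.7% in member promoters, 61.0% in those of detected protein-coding genes and 52.7% in all promoters. Members with the ETS site had a median of 26.5 TPM and those without it 18.0 TPM, and for the NRF1 core the medians were 20.7 and 17.6 TPM. With and without the YY1 site they were 18.7 and 18.2 TPM, and for the GC box 18.4 and 18.2 TPM. The CCAAT box had 19.2 and 16.9 TPM and the TATA box 19.8 and 18.1 TPM. No test was made of these medians, and they take no account of transcript length. Neither Mrps21, the highest member, nor Mrpl47, the lowest, held any of the 6 motifs in its window, as was the case for 12 members. A match is a description of the letters and not a site in use.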

How the data were processed

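Polyadenylated RNA was measured in 3 libraries of lipid A macrophages, a single group. Per the text files deposited beside them, the authors made gene and transcript quantifications from transcriptome alignments, and another transcript quantification from the reads with an index (mm10, GENCODE M21). The aligner and quantifiers used were not given in the sources used here. The deposited values are, per the file headers, expected counts (estimated, not whole), TPM, FPKM and the percent of a gene's abundance held by each transcript. The percent was recomputed from TPM, and FPKM served only for alternatives.

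Levels are medians of log2(TPM + 0.1). This scale understates ratios of low genes. For spread, expected counts were rounded to whole numbers, genes were filtered with filterByExpr and scaled by TMM in edgeR 4.0.16 (R 4.3.3), and a chi-square test set each gene's counts against the effective library sizes, with Benjamini-Hochberg adjustment over 11611 genes. The procedure was tested on simulated data. Copies were searched with BLAST 2.17.0. Python was 3.11.15.

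The genes named in full are the 5 highest and lowest of each subunit, the 5 most and 3 least variable, the Mrps18 paralogs, up to 5 led by a non-coding transcript, and those beyond 1.5-fold between quantifications; of other lists, the highest and lowest, of which 1 gene is not reported here. Overlapping and divergent pairs, copies and the printed sequences were chosen after their values were seen. Members and lists were chosen with earlier results of these data known. Alternatives were other pseudocounts, filters, units, scalings, the second quantification and leaving out each replicate.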

Additional observations from a re-analysis of the deposited data

Results flagged for a closer look

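Expected counts were found in genes outside the 78 members that carry a matching symbol. Mrpl23-ps1, a processed pseudogene, held 863.21 counts over the 3 libraries, above the 3 counts that a listing of 0 allows, and its values are given beside those of Mrpl23. Mrpl48-ps, a processed pseudogene of Mrpl48 with 98.0% identity over 396 bases, held 13.24 counts, at 0.18, 0.96 and 0.31 TPM in replicates 1, 2 and 3. How many of these counts came from Mrpl48 was not tested. Groups of 3 samples are too small for the rule on single outlying libraries, and there was no second group.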

How the results depend on the processing

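Of 78 alternative values of 12 results, 67 stayed within the spread between replicates or, for counts and the coefficient of variation, within 1.5 times. For the member deviations in replicates 1, 2 and 3 that limit was 0.167, larger than the deviations themselves. Even a change of sign could therefore stay within it. All 78 members were detected, so keeping only detected members could change nothing. The member level was 0.148 in FPKM and ran between 0.321 and 0.427 with a replicate left out, where fewer replicates change which genes count as detected. Large minus small subunit was 0.295 in the second quantification and 0.300 on CPM, and mitochondria-specific minus conserved was -0.363 on CPM. The summed level was 1696 TPM in the second quantification and 1958 TPM without Mrps21. The median protein-coding share was 94.3% in the second quantification. Members called by the chi-square test numbered 40, 20 and 35 of 78 without replicates 1, 2 and 3. The shares of all genes tested were then 64.3%, 50.6% and 58.8%, also lowest without replicate 2. On total counts 59 members were called, against 78.2% of all genes tested. With no filter on low counts 49 were called, against 49.65% of all genes, so the members then lay above that share. Members beyond 1.5-fold between quantifications numbered 1 to 3 with a replicate left out (3 without replicate 2), and centring the ratios, chosen after seeing the data, left 1. The member deviation in replicate 3 changed sign to 0.036 without replicate 2. The cause of these shifts was not tested. No paired analysis was possible because there is only 1 group. Low counts, 308 for Mrps35, limit the precision of the lowest members.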
